A study of Mus musculus with 10 samples.

Results

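Class 3 semaphorins are secreted guidance proteins, and the genes described here are 5 of them (Sema3a, Sema3b, Sema3c, Sema3e and Sema3f), both neuropilin genes (Nrp1 and Nrp2) and 3 plexin genes (Plxna1, Plxna2 and Plxnd1). These 10 genes, of 53379 in the count table, were found by symbol through their Ensembl identifiers. They were chosen because Sema3c stood lower in the high-fat group, and the other 9 because they encode related ligands or their receptors. The diet contrast of Sema3c is therefore what led to the choice, and all values of that contrast for these genes are a description of these libraries.

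Secreted class 3 semaphorins guide growing axons and also act on endothelial cells, immune cells and tumor cells. Most of them bind a neuropilin, which holds the ligand, and signal through a plexin, whose intracellular part acts on small GTPases and so on the cytoskeleton and on adhesion. SEMA3E is the exception that binds plexin D1 directly. Neuropilins also bind members of the vascular endothelial growth factor (VEGF) family, so ligands of both kinds meet at the same receptors.

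RNA was sequenced from MC38 cells, a mouse colon carcinoma line, that had grown for 21 days in C57BL/6J mice fed either a control diet or a high-fat diet. The cells of both groups carried the fluorescent protein dTomato and were sorted as dTomato-positive and negative for CD45, the leukocyte surface protein. Each diet was represented by 5 mice with 1 library per mouse. What the diets contained, how long they were fed, how old the mice were, their sex, and whether the tumor line came from a single clone are all points that the labels used here do not give.

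The libraries held 17050797 to 18653705 counts in control mice and 16513388 to 17154050 in high-fat mice, and the totals differed between diets (exact two-sided permutation p = 0.0317). Levels are TMM-scaled CPM, which relate a gene's count to the scaled total of its library, and 3 counts, up to which a count of 0 leaves room, correspond to 0.158 to 0.183 CPM. These limits account for counting error alone, because reads without molecular identifiers are not independent molecules. Of all genes, 14337 passed the filter on low counts and were tested, and Sema3e was the 1 member that did not pass.

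The sorted cells had few reads of epithelial genes: over all 10 libraries Epcam had 16 counts, Krt8 had 47 and Cdh1 had 271. The mesenchymal filament gene Vim had 684705, and only 2 of 10 genes of the epithelial and tumor list were tested. All 10 fibroblast markers were tested, with a summed level of 7007 to 11900 CPM in control and 6266 to 12430 CPM in high-fat libraries, and Col3a1 stood at 7992 and 7603 CPM on average. Sorted tumor cells with mesenchymal genes and admixed fibroblasts cannot be told apart from these libraries. Macrophage markers summed to 58.3 to 413 CPM in control and 26.4 to 65.1 CPM in high-fat libraries. All 10 genes were lower on average in the high-fat group and had an unadjusted p under 0.05 (edgeR). Such a p in the lower direction was found for 6.62% of all genes tested. None of the 10 had an adjusted p under 0.05. Controls 3 and 4 had the highest macrophage sums, of 364 and 413 CPM, and a value without them is given beside a result where leaving them out changes a call.

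Sema3c encodes a ligand of both neuropilins that is best known from the development of the heart outflow tract and its vessels. The gene (ENSMUSG00000028780.13) lies on chromosome 5 from 17574281 to 17730268 (GRCm38) on the forward strand, and its longest annotated transcript has 18 exons. In control mice 1 to 5 its level was 82.3, 86.7, 107, 78.5 and 97.9 CPM. In high-fat mice 1 to 5 it was 38.5, 45.5, 27.7, 40.8 and 55.9 CPM. Every high-fat library lay below every control library, the closest being high-fat mouse 5 and control mouse 4.

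The mean of Sema3c was 90.4 ± 11.6 CPM in control and 41.7 ± 10.3 CPM in high-fat mice (SD, n = 5 each), a ratio of 0.461. Its log2 change, high-fat minus control, was -1.12 (SE 0.16, 95% interval -1.46 to -0.78), and edgeR's quasi-likelihood test gave a Benjamini-Hochberg adjusted p of 0.0382. By unadjusted p it had rank 3 among the genes tested. In that test 0.0628% of all genes passed in either direction and 0.0209% passed as lower, and 1.10% of genes had all high-fat libraries below all control libraries. Since Sema3c was selected on this contrast, these shares stand beside its value and nothing is read from them. In sorted bulk samples, fewer cells that express a gene and less RNA per cell cannot be told apart.

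Whether Sema3c passed after adjustment over all genes changed when single libraries were left out. Leaving out single libraries gave log2 changes of -1.24 to -1.0, and adjusted p-values of 0.00574 to 0.178. Its unadjusted p in these edgeR fits was 1.97e-06 to 7.20e-05. The adjusted p also depends on the other genes. Without high-fat mouse 1 an unadjusted p of 7.20e-05 passed, and without control mouse 4 one of 1.77e-05 did not. The gene did not pass without control mouse 1, 2, 4 or 5 or without high-fat mouse 2 or 4. It also did not pass with library size as a covariate (-1.07, edgeR adjusted p = 0.674). With the mean log2 CPM of the endothelial markers as a covariate it did not pass either (-0.94, edgeR adjusted p = 0.172). Library totals differed between diets, so the fit with library size cannot fully separate size from diet, and 0 genes passed in it. Endothelial sums also ran higher in the high-fat group, at 27.7 to 45.2 CPM against 22.7 to 31.3 CPM in control. The fit with the endothelial level therefore cannot fully separate that level from diet. Only 4 of the 10 markers in that level had enough counts to be tested.

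**Figure D1:**
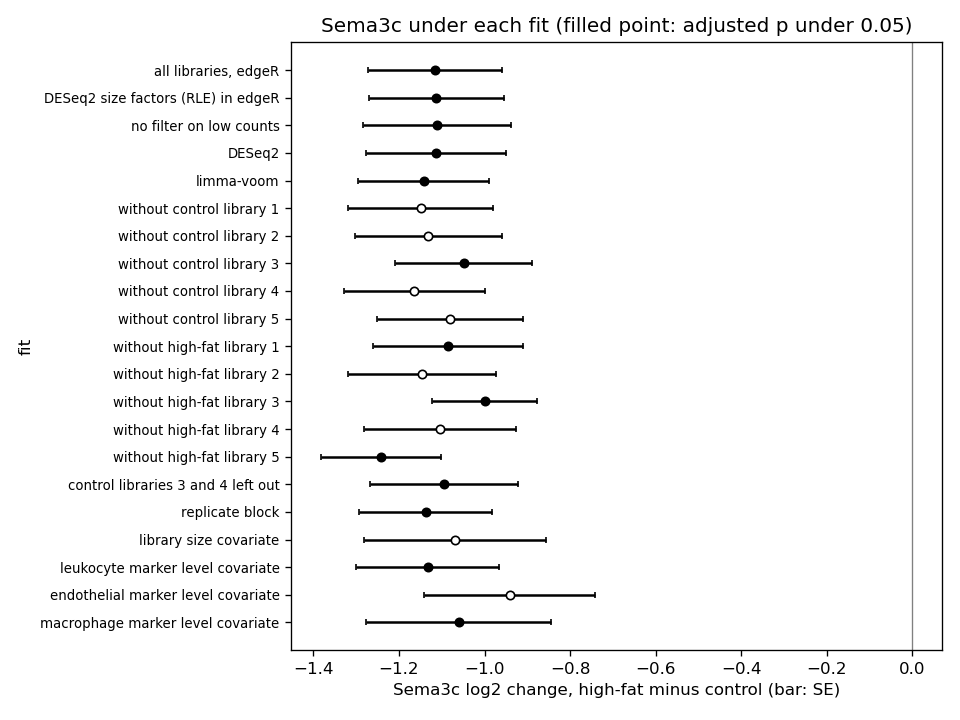
Log2 change of Sema3c, high-fat minus control, in the reported fit and in 20 alternatives, with bars for the standard error. Filled points have an adjusted p under 0.05, and all points lie left of 0, between -1.24 and -0.94.

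No tested marker of another cell type passed the threshold, though the summed marker levels varied between libraries. Many markers had too few counts to be tested. Of 10 each, 5 pericyte, 5 nerve, 2 adipocyte and 2 T and NK cell markers were tested. Within controls, the 2 libraries with the highest macrophage sums held the highest (mouse 3) and the lowest (mouse 4) Sema3c level. With the macrophage level as a covariate its log2 change was -1.06 (adjusted p = 0.0275), and without control mice 3 and 4 it was -1.09 (adjusted p = 0.0119). Endothelial markers summed to 22.7 to 31.3 CPM in control and 27.7 to 45.2 CPM in high-fat libraries. High-fat mouse 3, which had the lowest Sema3c, had the highest endothelial sum. Of the 10 endothelial markers 4 were tested, and 2 were higher at an unadjusted p under 0.05, found for 5.45% of all genes in that direction: Cdh5 (control mean 2.38, high-fat mean 4.62 CPM) and Vwf (0.830 and 2.88 CPM). The abundant marker Pecam1, the largest part of the endothelial sum in every library, stood at 17.2 and 18.2 CPM. Egfl7 stood at 4.68 and 4.16 CPM. The untested endothelial markers had 32 (Cldn5) to 105 (Tie1) counts in all, and each was higher on average in the high-fat group. Their control and high-fat means were 0.0671 and 0.455 CPM for Tek, 0.0660 and 0.308 for Cldn5, and 0.196 and 0.597 for Emcn. They were 0.307 and 0.925 CPM for Tie1, 0.214 and 0.623 for Robo4, and 0.298 and 0.620 for Esam. The part of these cells in the Sema3c difference was otherwise not tested.

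None of the other secreted ligands passed the threshold. Sema3a, the founding member of the class and a ligand of neuropilin-1 that makes axon growth cones collapse (chromosome 5, 13125414 to 13602565), stood at 158, 158, 123, 145 and 151 CPM in control mice 1 to 5. Its levels in high-fat mice 1 to 5 were 140, 143, 124, 150 and 144 CPM. The groups overlapped along most of their range, with the lowest value of each group in mouse 3. The means were 147 ± 14.7 and 140 ± 9.68 CPM (SD, n = 5 each), a log2 change of -0.07 (95% interval -0.24 to 0.11, edgeR adjusted p = 0.812).

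Sema3f, a ligand of neuropilin-2 (chromosome 9, 107681500 to 107710475), had 277 counts over all libraries. Its levels were 1.96, 0.955, 1.28, 3.54 and 1.25 CPM in control mice 1 to 5. In high-fat mice 1 to 5 they were 1.55, 0.538, 1.95, 1.66 and 1.17 CPM. Control mouse 4 was the highest of all, and the other 9 libraries overlapped. The log2 change was -0.39 (SE 0.39, edgeR adjusted p = 0.767), without control mouse 4 it was 0.01, with the macrophage level as a covariate 0.26, and with the endothelial level -1.15 (edgeR adjusted p = 0.383).

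Sema3b, which lies next to Sema3f on chromosome 9 (107597674 to 107609229) and like it was first studied as a gene lost in lung tumors, was rarer, with 185 counts in all. Its levels were 1.31, 1.06, 0.70, 0.951 and 1.82 CPM in control mice 1 to 5. They were 1.07, 1.08, 0.733, 0.946 and 0.991 CPM in high-fat mice 1 to 5. All high-fat values fell inside the control range, and the log2 change was -0.27 (SE 0.26, edgeR adjusted p = 0.759), or -0.68 with the macrophage level as a covariate (adjusted p = 0.357). Sema3e, the plexin D1 ligand (chromosome 5, 14025276 to 14256689), had 0 counts in all 10 libraries, which allows at most 3 counts in each.

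**Figure D2:**
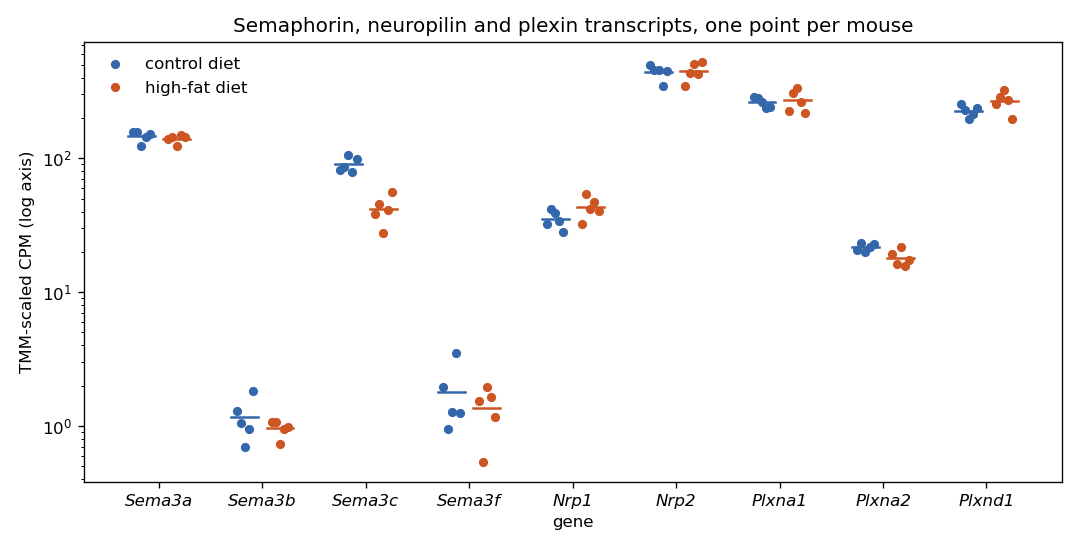
TMM-scaled CPM of the 9 detected members on a log axis, with 1 point per mouse, lines for the mean of each diet, and colours for the diets. Among these 9 genes Sema3c is the one whose diets do not overlap, with control mice at 78.5 to 107 and high-fat mice at 27.7 to 55.9 CPM.

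Summed over the 5 ligands, the level was 240 ± 10.4 CPM in control and 184 ± 18.2 CPM in high-fat mice (SD, n = 5 each). Without Sema3c the sum was 150 ± 14.9 and 142 ± 9.54 CPM. Per kilobase of exon, the scale on which different genes can be set side by side, Sema3c made up 48.9% to 61.8% of the ligand transcripts in control libraries and 29.1% to 42.1% in high-fat libraries. The share contains the Sema3c level itself, so it restates that difference on another scale. It also depends on the length used. By the longest annotated transcript, Sema3a (24.7 ± 2.47 CPM per kilobase) stood above Sema3c (16.5 ± 2.11) in control mice.

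Of the neuropilins, Nrp2 was the abundant one. Nrp2, which binds SEMA3F, SEMA3C and the lymphatic growth factor VEGF-C (chromosome 1, 62703285 to 62818695), stood at 495, 453, 453, 345 and 450 CPM in control mice 1 to 5. In high-fat mice 1 to 5 it stood at 349, 430, 509, 424 and 520 CPM. Both groups spanned nearly the same range. The log2 change was 0.02 (95% interval -0.24 to 0.28, edgeR adjusted p = 0.960), and its sign turned in 6 of 20 alternatives.

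Nrp1, the receptor for SEMA3A and a co-receptor for VEGF-A (chromosome 8, 128358604 to 128503363), stood at 32.1, 41.6, 38.9, 34.2 and 28.0 CPM in control mice 1 to 5. The high-fat values were 32.3, 54.1, 41.8, 46.7 and 40.6 CPM in mice 1 to 5. Of the high-fat libraries, 3 exceeded the highest control and mouse 1 lay among the lowest. The means of 35.0 ± 5.42 and 43.1 ± 8.04 CPM (SD, n = 5 each) gave a log2 change of 0.30 (SE 0.14), with an unadjusted p of 0.0457 and an adjusted p of 0.398 in edgeR, so the gene did not pass. An unadjusted p under 0.05 in the higher direction was found for 5.45% of all genes tested.

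Plexins carry the signal into the cell. Plxnd1, whose product pairs with neuropilins for SEMA3C and binds SEMA3E directly (chromosome 6, 115954811 to 115995005), stood at 254, 231, 195, 213 and 235 CPM in control mice 1 to 5. The high-fat values were 253, 286, 325, 270 and 196 CPM in mice 1 to 5. Of the high-fat libraries, 3 lay above every control, while mouse 5 lay at the bottom of the control range. The log2 change was 0.24 (SE 0.12, 95% interval -0.02 to 0.50, edgeR adjusted p = 0.460). High-fat mouse 3, with the highest Plxnd1, also had the highest endothelial sum (45.2 CPM) and the highest summed pericyte markers, which spanned 246 to 271 CPM in control and 266 to 353 CPM in high-fat libraries. Cspg4 and Pdgfrb made up most of the pericyte sum, with 177 and 169 CPM in high-fat mouse 3. Rgs5 had 42 counts in all, Notch3 15, Abcc9 13, Myh11 13 and Kcnj8 7, and these genes were not tested. With the endothelial level as a covariate the log2 change of Plxnd1 was 0.26 (edgeR adjusted p = 0.851), and the part of pericytes was not tested.

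Plxna1, a signalling partner of neuropilin-1 (chromosome 6, 89316314 to 89362620), stood at 287, 281, 263, 236 and 241 CPM in control mice 1 to 5. The high-fat values were 227, 309, 335, 265 and 218 CPM in mice 1 to 5. The high-fat group extended beyond the control group on both sides. The log2 change was 0.05 (95% interval -0.20 to 0.30, edgeR adjusted p = 0.915). The antisense gene Gm26811 overlaps 10.7% of its exon bases, and without a stated strand setting the reads of both cannot be told apart.

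Plxna2, another plexin A gene (chromosome 1, 194618218 to 194816869), was the least abundant of the 3. It stood at 20.5, 23.2, 19.9, 21.6 and 23.1 CPM in control mice 1 to 5. The high-fat values were 19.2, 16.3, 21.8, 15.6 and 17.4 CPM in mice 1 to 5. High-fat mouse 3 lay inside the control range and the other 4 lay below it. The means of 21.6 ± 1.49 and 18.1 ± 2.50 CPM (SD, n = 5 each) gave a log2 change of -0.26 (SE 0.10), with an unadjusted p of 0.0222 and an adjusted p of 0.317 in edgeR, so this gene did not pass either.

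Of the 9 members tested, 1 passed the threshold, 4 had a positive and 5 a negative change, and the median log2 change was -0.07 against 0.01 over all genes tested. Negative changes made up 48.6% of all genes. At an unadjusted p under 0.05 there were 1 higher and 2 lower members, where 12.1% of all genes had such a p and 6.62% had one in the lower direction. Because Sema3c is among the 2, only Plxna2 adds to that count.

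**Figure D3:**
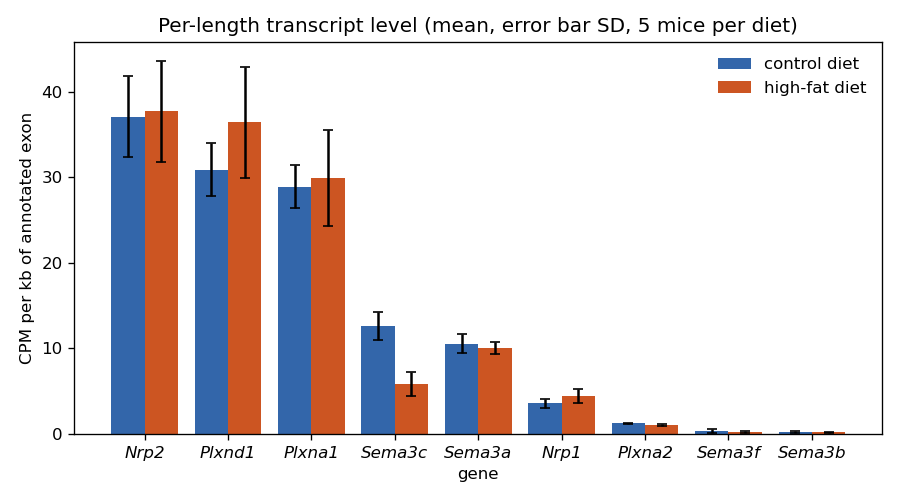
Mean level of each detected member in CPM per kilobase of annotated exon, with bars for the diets and error bars for the SD over 5 mice per diet. Nrp2, Plxnd1 and Plxna1 lie at the top near 30 to 38, Sema3c and Sema3a next, and Sema3b and Sema3f lie under 1.

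Compared per kilobase of exon, Nrp2, Plxnd1 and Plxna1 stood above every ligand gene in these cells. In control mice their levels were 37.1 ± 4.73, 30.9 ± 3.07 and 28.9 ± 2.52 CPM per kilobase (SD, n = 5), and neighbours among these 3 overlapped within 1 SD. Sema3c (12.7 ± 1.62) and Sema3a (10.6 ± 1.06) followed and also overlapped. Nrp1 (3.57 ± 0.554), Plxna2 (1.26 ± 0.0867) and the pair of Sema3f (0.346 ± 0.200) and Sema3b (0.244 ± 0.0891) came after them, and the members of that pair overlapped.

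In high-fat mice the order changed at 1 place. Sema3a (10.1 ± 0.698 CPM per kilobase) stood above Sema3c (5.84 ± 1.44), and the range of Sema3c now overlapped that of Nrp1 (4.41 ± 0.821). The order depends on the length used: by the longest annotated transcript, Sema3a (24.7 ± 2.47) stood above Sema3c (16.5 ± 2.11) in control mice too and overlapped Plxna1 (29.0 ± 2.52). On that length Nrp1 (11.8 ± 2.20) stood above Sema3c (7.59 ± 1.88) in high-fat mice, with no overlap within 1 SD. For Nrp1 that transcript is 3645 bases long against 9785 bases of exon in all.

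The libraries of a diet differed among themselves, and the detected members could be compared within diets. After the mean of its diet was taken from each library, Sema3c and Plxnd1 ran in opposite directions over 10 libraries (Pearson r = -0.771, exact permutation within diets p = 0.0417, adjusted p = 0.333 over 8 relations). The rank correlation was weaker (Spearman rho = -0.45, exact permutation p = 0.246, adjusted p = 0.732). Without high-fat mice 3 and 5, the libraries farthest from the middle of Sema3c, r was -0.240, so the relation rests on those libraries. High-fat mouse 3 had the lowest Sema3c and the highest Plxnd1, and high-fat mouse 5 had the highest Sema3c and the lowest Plxnd1 of their group.

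For the other 7 members r with Sema3c lay between -0.602 (Plxna2) and 0.207 (Sema3b), and none passed after adjustment. Sema3f had the strongest rank correlation (rho = -0.70, exact permutation p = 0.0522, adjusted p = 0.418). Its r was -0.566 (exact permutation p = 0.109, adjusted p = 0.399), and -0.700 without high-fat mice 3 and 5.

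**Figure D4:**
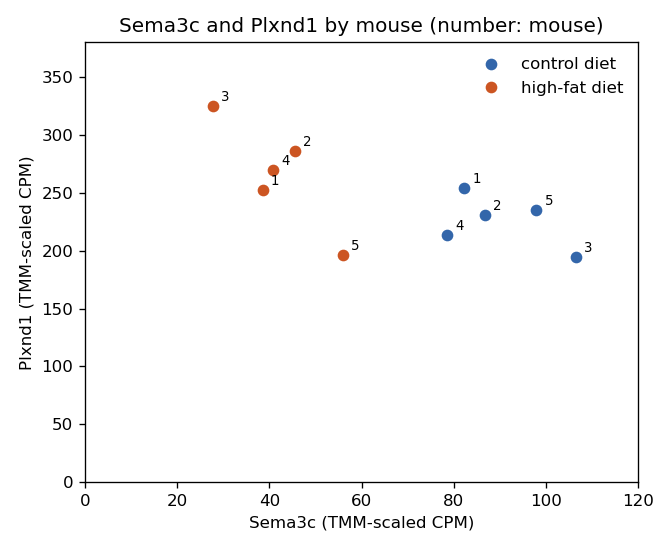
Plxnd1 against Sema3c in each library, both in TMM-scaled CPM, with points numbered by mouse and coloured by diet. The diets separate along the Sema3c axis, and high-fat mice 3 (27.7 and 325 CPM) and 5 (55.9 and 196 CPM) mark the ends of the high-fat group.

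Genes with a pattern like that of Sema3c were ranked by Pearson r of log2 CPM among 9644 genes with a mean of at least 10 CPM. Over all 10 libraries, between which diet differs, the 5 highest were Kcnab2 (0.946), Igf2bp2 (0.929), Ppp1r7 (0.925), Eif4g2 (0.917) and Bmi1 (0.911). These genes changed far less than Sema3c in size: Kcnab2, a potassium channel subunit gene, had means of 188 CPM (control) and 176 CPM (high-fat), and Igf2bp2, which encodes an RNA-binding protein, had means of 272 and 234 CPM. After the diet means were taken out, the 5 highest were Cmpk1 (0.960), Brms1 (0.959), Tbc1d10b (0.930), Thoc3 (0.921) and Rxylt1 (0.916). No gene was in both sets of 5. The highest of 9644 correlations over 10 libraries are large by selection, and these values are a description only.

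None of the tested genes around Sema3c passed the threshold. Within 2 Mb on either side lie 13 other protein-coding genes, of which 4 were tested and 5 had no counts. Gnai1, which encodes an inhibitory G protein subunit, stood at 11 ± 3.57 and 6.28 ± 2.73 CPM (log2 change -0.81, SE 0.30, edgeR adjusted p = 0.307). Hgf, the ligand of the receptor Met, stood at 68.6 ± 1.79 and 75.5 ± 4.15 CPM (0.14, edgeR adjusted p = 0.375). The unadjusted p in edgeR was 0.0200 for Gnai1 and 0.0381 for Hgf, and 12.1% of all genes had one under 0.05. Cacna2d1 had a log2 change of -0.05 and Magi2 one of 0.02. These genes and their values were looked up after those of Sema3c had been seen.

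The remaining semaphorins comprise other secreted members and the membrane-bound classes, and of 15 on that list 12 were tested. None passed in edgeR, with 5 positive and 7 negative changes, a median of -0.10, and 2 lower and 0 higher at an unadjusted p under 0.05 (6.62% and 5.45% of all genes). Sema4d, a membrane semaphorin of lymphocytes and macrophages that binds plexin B1, stood at 3.97, 2.92, 5.42, 7.82 and 1.65 CPM in control mice 1 to 5. In high-fat mice 1 to 5 it stood at 0.536, 2.33, 2.14, 1.01 and 0.816 CPM, overlapping the lowest control (log2 change -1.67, SE 0.46, edgeR adjusted p = 0.197). Its highest levels were those of control mice 3 and 4, which also had the highest macrophage sums, and with the macrophage level as a covariate its log2 change was -0.39 (SE 0.41, edgeR adjusted p = 0.696). Without control mice 3 and 4 it was -1.06 (SE 0.44, edgeR adjusted p = 0.266), and with the leukocyte level -1.20 (SE 0.26, edgeR adjusted p = 0.0234). Macrophage sums ran lower in the high-fat group, at 26.4 to 65.1 CPM against 58.3 to 413 CPM in control. The fit with the macrophage level therefore cannot fully separate that level from diet.

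Sema6a, a transmembrane semaphorin that signals through plexin A proteins, stood at 85.0, 82.4, 30.0, 46.9 and 65.9 CPM in control mice 1 to 5. It stood at 43.0, 37.6, 40.0, 43.0 and 34.3 CPM in high-fat mice 1 to 5. Here control mouse 3 was the lowest library of all and the high-fat libraries lay close together (log2 change -0.65, SE 0.24, edgeR adjusted p = 0.310). Sema6a did pass without control mice 3 and 4 (-0.98, adjusted p = 0.00249), with the macrophage level as a covariate (-1.21, adjusted p = 0.0243) and with the leukocyte level (-0.77, adjusted p = 0.0465), and with the endothelial level it was at -0.44 (adjusted p = 0.878). Sema4g stood at 2.25 and 2.94 CPM and Sema3g at 0.851 and 0.561 CPM. Sema3d had 92 counts over all libraries and was not tested.

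Of the 6 other plexin genes 4 were tested and none passed, with 1 positive and 3 negative changes and 1 lower at an unadjusted p under 0.05 (6.62% of all genes). Plxnb2, a receptor of class 4 semaphorins, was abundant at 409 ± 26.8 and 438 ± 20.2 CPM (SD, n = 5 each; log2 change 0.10, edgeR adjusted p = 0.625). Plxna3 stood at 9.80 and 9.12 CPM and Plxnb1, the receptor of SEMA4D, at 13.9 and 12.9 CPM. Plxnc1, the receptor of SEMA7A, had only 119 counts in all and stood at 0.974 ± 0.366 and 0.369 ± 0.175 CPM (log2 change -1.39, SE 0.35, edgeR adjusted p = 0.183). Plxna4 and Plxnb3 had 96 and 10 counts and were not tested.

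Co-receptors and enzymes that process semaphorins formed a list of 13 genes, of which 9 were tested. None passed, with 4 positive and 5 negative changes, a median of -0.04 and 2 lower at an unadjusted p under 0.05 (6.62% of all genes). Adamts1, a secreted metalloprotease known to cleave SEMA3C, stood at 163, 136, 170, 167 and 149 CPM in control mice 1 to 5. In high-fat mice 1 to 5 it stood at 138, 132, 108, 109 and 92.5 CPM, where mouse 1 reached into the control range (log2 change -0.44, SE 0.11, edgeR adjusted p = 0.172). Furin, the protease that cleaves class 3 semaphorins at basic sites, stood at 243 ± 7.15 and 244 ± 22.4 CPM, with a 95% interval of the log2 change from -0.15 to 0.15.

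Nrcam, a cell adhesion molecule that forms complexes with neuropilins, stood at 7.17 ± 2.01 and 4.75 ± 0.804 CPM (log2 change -0.59, edgeR adjusted p = 0.266), and passed without control mice 3 and 4 (-0.80, adjusted p = 0.0365) and with the leukocyte level as a covariate (-0.72, adjusted p = 0.0309). The related L1cam stood at 4.43 and 5.29 CPM. Gipc1, an adaptor that binds the tail of neuropilin-1, stood at 69.5 and 67.8 CPM, and Met, a receptor kinase that can associate with plexins and neuropilins, at 94.2 and 99.0 CPM. The convertase gene Pcsk7 stood at 23.7 and 26.2 CPM. The VEGF receptor gene Flt1 stood at 1.23 and 1.19 CPM, and Kdr, with 93 counts, was not tested.

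All 5 VEGF ligand genes, whose products share the neuropilins, were tested, and none had an unadjusted p under 0.05. Vegfa was the most abundant of them by CPM at 395 ± 53.7 and 377 ± 31.6 CPM (log2 change -0.07, 95% interval -0.28 to 0.15). Vegfb stood at 149 and 157 CPM, Vegfc at 26.3 and 24.1 CPM, Vegfd at 26.5 and 30.4 CPM, and Pgf at 1.40 and 1.34 CPM, the control mean being given first.

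Of 30 genes that act downstream of plexins 28 were tested and none passed, with 14 positive and 14 negative changes and a median of 0.002. At an unadjusted p under 0.05 there were 2 higher and 5 lower (5.45% and 6.62% of all genes). Farp1, a Rac activator that binds plexin A proteins, stood at 129, 125, 95.1, 102 and 123 CPM in control mice 1 to 5. It stood at 77.1, 91.6, 79.0, 86.9 and 75.3 CPM in high-fat mice 1 to 5, all below the control libraries. The log2 change was -0.48 (SE 0.10, edgeR adjusted p = 0.105), and Farp1 passed in 6 of 20 alternatives, among them without control mice 3 and 4 (-0.61, adjusted p = 0.00533).

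Fyn, a kinase recruited to plexins, was the other gene of this list with all high-fat libraries below the controls (1.10% of all genes), at 77.1 ± 8.84 and 65.0 ± 0.650 CPM (log2 change -0.25, SE 0.08, edgeR adjusted p = 0.239). Its closest libraries were control mouse 4 at 68.4 CPM and high-fat mouse 2 at 65.7 CPM. Mical2, of the actin-oxidizing enzyme family through which plexins reach the cytoskeleton, stood at 226 ± 30.6 and 296 ± 37.0 CPM (log2 change 0.39, SE 0.11, edgeR adjusted p = 0.195). It passed with DESeq2 (0.39, adjusted p = 0.0415), without control mice 3 and 4 (0.50, adjusted p = 0.0410), and with the leukocyte (0.47, adjusted p = 0.00856) or macrophage level (0.61, adjusted p = 0.0339) as a covariate.

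**Figure D5:**
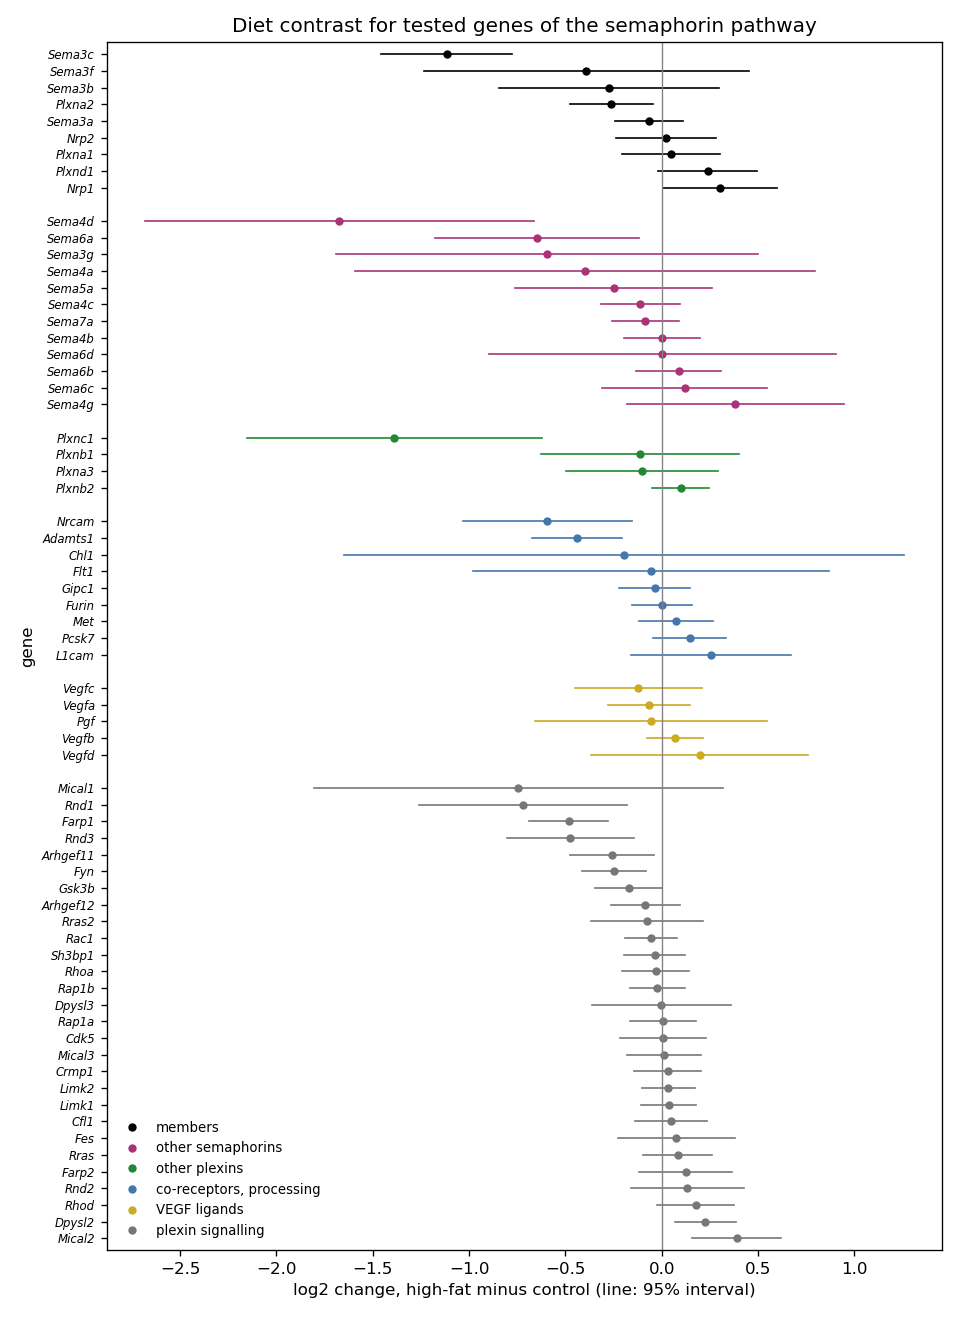
Log2 change, high-fat minus control, with its 95% interval for every tested gene of the member list and the 5 pathway lists, coloured by list and ordered by change. Sema3c, at -1.12, is the gene that passed after adjustment, and Sema4d (-1.67) and Plxnc1 (-1.39) lie further left with wider intervals.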

How the data were processed

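The authors deposited raw read counts per gene as a single table with 1 column per mouse, and every column was matched to a labelled mouse, leaving 0 columns unmapped. The submitters' processing notes list BWA 0.7.12, cutadapt 1.15, DESeq2 1.24.0 and FastQC 0.11.5 without saying what each did, and GRCm38 and mm10 as builds. How reads were counted, with which annotation, on which strand and with what rule for multiply placed reads was not given in the sources used here. A NEBNext Ultra kit was used on polyA RNA, per the labels' protocols. Of 53379 identifiers, 53274 matched GENCODE M21 without the version suffix and 50604 with it, and symbols, coordinates and lengths come from that annotation. All pairs of libraries differed by more than sampling noise (lowest chi-square per degree of freedom 8.36). The labels give no batch, and since nothing says more of the mice than a number, p-values measure the spread between these samples.

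All genes were fitted with edgeR 4.0.16 in R 4.3.3: TMM scaling, filterByExpr, a robust quasi-likelihood fit of diet alone, a two-sided test, and Benjamini-Hochberg adjustment over 14337 genes (99.9% of counts) with a threshold of 0.05. Standard errors are the size of the log2 change over the root of its F statistic. On simulated counts for these 14337 genes, the fit recovered 78.6% of 98 genes changed by 1 on the log2 scale. It recovered 97.9% of 97 changed by 2, with 8 false among 180 calls. The simulation planted 200 changed genes, and its 180 calls make the Benjamini-Hochberg cutoff looser than in the data, where 9 genes passed. The shares recovered therefore do not carry over to these data. Alternatives were DESeq2 1.42.0 and limma-voom (limma 3.58.1), other scaling, no filter and left-out libraries. Further alternatives were a replicate block, and library size or marker levels as covariates. A marker level used as a covariate was the mean log2 CPM over the markers of a list. The macrophage covariate was chosen after seeing the data. Macrophage and endothelial levels differed between diets, so the fits with them cannot fully separate these levels from diet. Correlations used log2 CPM with a prior count of 2.

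The members, lists and tests were chosen with earlier results of these data known. Named pathway genes were all other tested plexins, Sema3g, the VEGF ligands and receptors, Met, Gipc1, Furin and Adamts1 where tested, and the 4 genes of each list with the smallest p; genes like Sema3c were the 5 with the highest r on each measure. Marker genes and genes neighbouring Sema3c are named outside this rule. The diet contrast of 1 gene that this rule names is not reported here.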

Additional observations from a re-analysis of the deposited data

Results flagged for a closer look

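In 7 of 68 sets of 5 libraries (34 named genes, each diet on its own) the highest or lowest library stood apart from the other 4 by Dixon's 95% criterion, where chance gives about 1 in 20; none of the 7 concerns a member. Flt1, a VEGF receptor gene, reached 2.91 CPM in control mouse 4 against 0.690 to 1.11 in the other controls. Plxna3 was also highest in control mouse 4, at 12.4 CPM against 8.57 to 9.55. Furin was lowest in control mouse 2, at 231 CPM against 245 to 248. In the high-fat group, L1cam reached 7.88 CPM in mouse 3 against 4.38 to 4.84, and Rnd3 reached 32.9 CPM in mouse 2 against 20.7 to 23.0. High-fat mouse 1 was the highest for Pgf, at 2.32 CPM against 0.896 to 1.30, and the lowest for Vegfd, at 20.2 CPM against 30.6 to 34.5.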

How the results depend on the processing

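Sema3c kept its sign in all 20 alternatives run and passed in 12 of them, with adjusted p from 4.90e-08 (DESeq2) to 0.674. It did not pass with library size (-1.07) or the endothelial level (-0.94) as a covariate, where 0 members passed, and left-out single libraries gave -1.24 to -1.0 and 0 to 1 members. The replicate numbers do not pair the mice: same-numbered deviations correlated at 0.23, -0.36, 0.33, -0.07 and 0.15, and 1 of 5 correlated best with its own number. With the replicate block Sema3c was at -1.14 (adjusted p = 0.0472) and 16 genes passed in place of 9.

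The number of genes called was 53 with no filter, 326 with DESeq2, 5 with limma-voom, 276 without control mice 3 and 4, 0 with library size (817 at an unadjusted p under 0.05), 513 with the leukocyte level, 3 with the endothelial level, 297 with the macrophage level and 1 to 27 without single libraries. Sema3c was the member called wherever 1 was. Of the pathway genes, 0 passed in the reported fit, 1 with no filter (Farp1), 4 with DESeq2 (Adamts1, Farp1, Mical2 and Sema4d), 6 without control mice 3 and 4 (Arhgef11, Farp1, Mical2, Nrcam, Rnd1 and Sema6a), 6 with the leukocyte level (the same list with Sema4d in place of Arhgef11), 4 with the macrophage level (Farp1, Mical2, Rnd1 and Sema6a) and 0 to 1 without single libraries (Farp1, without control mouse 3). Arhgef11 and Rnd1 are named after their values were seen.

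Signs turned for members that did not pass. Without single libraries Sema3f ranged from -0.553 to 0.0138 (lacking control mouse 4), Nrp2 from -0.0530 (lacking the same mouse; also negative lacking high-fat mouse 3 or 5) to 0.104, and Plxna1 from -0.0384 (lacking high-fat mouse 3) to 0.120. Sema3f was at 0.260 with the macrophage level and -1.15 with the endothelial level, and Sema3b was at -0.685 with the macrophage level. Nrp2 was at -0.0638 without control mice 3 and 4, -0.108 with library size and -0.0360 with the macrophage level. Plxna1 was at -0.0390 and Sema3a at 0.00204 with library size, and Sema3a was at 0.00827 and Sema3b at 0.0540 with the endothelial level. By Spearman's rho, 2 of the 5 genes most like Sema3c within diets were shared. The cause of these shifts was not tested. DESeq2 size factors moved the median change by 0.004. Sema3b and Sema3f rest on 185 and 277 counts, so small differences were not detectable at this depth.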
